A study of Homo sapiens with 4 samples.

Results

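The cluster of miR-105 and miR-767 comprises 3 microRNA (miRNA) hairpins in GABRA3, the X-linked gene of a subunit of the GABA-A receptor. Its members were all rows of the count table named miR-105 or miR-767, which gave 4 of the 826 rows: hsa-miR-105-5p, hsa-miR-105-3p, hsa-miR-767-5p and hsa-miR-767-3p, both arms of each miRNA. Small RNA had been sequenced from H661, an established cell line derived from a human large cell carcinoma of the lung. All cells were grown in RPMI1640 with serum; 2 libraries came from cells given the solvent dimethyl sulfoxide (DMSO) and 2 from cells given entinostat at 2.5 µM, each for 8 h. Entinostat inhibits class I histone deacetylases, and no genetic change separated the groups. The comparison asks how the abundance of the cluster differed between these treatments.

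An miRNA is cut from a hairpin precursor, first in the nucleus by Drosha and then in the cytoplasm by Dicer, and usually 1 arm of the resulting duplex is kept in an Argonaute protein. The kept arm finds messenger RNAs mainly through its seed, bases 2 to 8. The cluster is known as a cancer-testis cluster: it is active in germ cells, silent with a methylated promoter in most other tissues, and reactivated in some tumours that lose DNA methylation. The arm miR-767-5p is known to repress the DNA demethylases TET1 and TET3. Known for its release from metastatic breast cancer cells, miR-105-5p targets the tight junction protein ZO-1.

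The mature sequences are shown to make the seeds and the likeness of the arms visible. They are RefSeq's (GRCh38.p14), written from 5′ to 3′ with the seed in capitals.
miR-105-5p: uCAAAUGCucagacuccuguggu
miR-105-3p: aCGGAUGUuugagcaugugcua
miR-767-5p: uGCACCAUgguugucugagcaug
miR-767-3p: uCUGCUCAuaccccaugguuucu
All 4 seeds differ. RefSeq held a mature sequence for 729 of the 826 listed miRNAs, and none of the 725 that are no member had the seed of a member at bases 2 to 8. The longest run shared between an arm of miR-105 and an arm of miR-767 was 8 bases, UGAGCAUG, in miR-105-3p and miR-767-5p.

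Of the 3 hairpins, 2 encode miR-105, and they are shown because their products cannot be separated in these counts. Capitals mark the mature arms, the 5p arm first.
MIR105-2: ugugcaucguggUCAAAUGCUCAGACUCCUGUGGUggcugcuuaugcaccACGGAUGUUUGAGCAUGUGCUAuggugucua
MIR767: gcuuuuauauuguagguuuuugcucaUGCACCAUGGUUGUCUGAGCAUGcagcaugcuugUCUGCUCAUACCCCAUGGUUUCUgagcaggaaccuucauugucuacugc
MIR105-1: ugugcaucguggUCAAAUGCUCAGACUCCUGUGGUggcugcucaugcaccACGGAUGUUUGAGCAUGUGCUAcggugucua
From MIR105-1 to MIR105-2 there were 2 substitutions in 81 bases, C43U and C73U, counted from 1 at the 5′ end of the hairpin. Both lay outside the mature arms, so a mature miR-105 sequence does not tell which hairpin gave it. How reads that match both hairpins were counted is unknown. MIR767 was identical to MIR105-1 in 58 of 110 aligned columns (52.7%), against 79 of 81 (97.5%) between the miR-105 copies. In minimum free energy structures computed with RNAfold, each hairpin had 16 base pairs between its 5p and 3p arms, and the energies were -43.1 kcal/mol for MIR105-1, -41.3 kcal/mol for MIR105-2 and -44.0 kcal/mol for MIR767.

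All hairpins lie on the minus strand, the strand of GABRA3 (chrX:152166234-152451358). In the order of transcription they are MIR105-2 (chrX:152394412-152394492), MIR767 (chrX:152393421-152393529) and MIR105-1 (chrX:152392219-152392299), within 2274 bases. GENCODE release 29 places them in intron 1 of the longest GABRA3 transcript, between 56866 and 59139 bases after its start. They lie outside the other protein-coding transcript, which begins 2722 bases after MIR105-1. The messenger RNA of GABRA3 was not measured here.

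**Figure D1:**
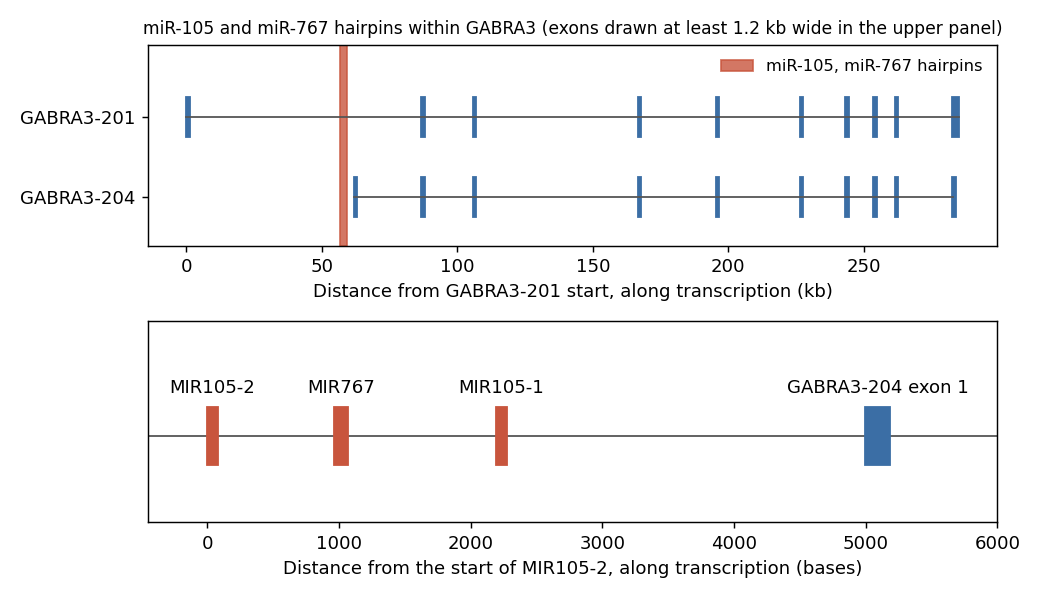
Position of the cluster in GABRA3: the upper panel gives the distance from the start of the longest transcript in kb, with exons of both protein-coding transcripts in blue (drawn at least 1.2 kb wide) and the hairpins in red, and the lower panel the distance from the start of MIR105-2 in bases. The 3 hairpins sit in intron 1 of the longest transcript, and the first exon of the shorter one follows 2722 bases after MIR105-1.

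Libraries held between 547875 and 938559 miRNA counts. The cells were labelled as a lung cancer line, and epithelial miRNAs were scarce in them: the 5 listed rows of that set summed to 75.6 and 57.0 counts per 1e+06 (CPM) with DMSO and 91.3 and 82.3 CPM with entinostat, with miR-200c-3p the highest of them. That sum was higher in both entinostat libraries, but its rows did not move together. Of the 3 tested, the log2 fold change of entinostat over DMSO was 0.57 for miR-200c-3p, 0.08 for miR-375 and -0.46 for miR-203a-3p. None had an edgeR adjusted p under 0.05. Of the others, miR-205-5p had 0 and 2 counts with DMSO against 9 and 4, and miR-200b-3p 3 and 0 against 0 and 0. The part of these miRNAs in the results below was not tested. Blood, liver and muscle sets each summed to at most 12.8 CPM in any library. The neuronal set held only miR-124 and miR-219 rows and summed to between 49.9 and 93.1 CPM. Most of that was miR-219a-1-3p, while miR-124 was seen only as miR-124-5p, with 2 counts in entinostat replicate 2. Some other miRNAs common in neurons were abundant, with mean levels of 6576 CPM for miR-128-3p and 1220.2 CPM for miR-9-5p. By contrast, miR-137 stood at 23.5 CPM. These rows were named after their values were seen and are no full list.

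Both 5p arms were well expressed in H661 cells and lay at nearly the same level with DMSO and entinostat. The arm miR-105-5p had 1548 and 871 counts in the DMSO libraries and 856 and 1126 in the entinostat libraries. After TMM scaling (trimmed mean of M-values), this was 1657 and 1551.5 CPM with DMSO and 1576 and 1484 CPM with entinostat. One entinostat library lay between the DMSO libraries and the other below both. By count it ranked between 74 and 79 of the 826 rows in every library. Its mean was 1604 ± 74.5 CPM in DMSO and 1530.0 ± 64.5 CPM under entinostat (SD, n = 2).

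The arm miR-767-5p had 738 and 398 counts in the DMSO libraries and 411 and 608 in the entinostat libraries, or 789.9 and 709.0 against 756.5 and 801.5 TMM-scaled CPM. The groups overlapped here too, with the highest value in entinostat replicate 2 and the lowest in DMSO replicate 2. Its rank ran from 104 to 116. The mean was 749.4 ± 57.2 CPM in DMSO and 779.0 ± 31.8 CPM under entinostat (SD, n = 2).

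The 3p arms were rare. For miR-105-3p the DMSO libraries had 8 and 6 counts and the entinostat libraries 9 and 17, or 8.56 and 10.7 against 16.6 and 22.4 TMM-scaled CPM. Both entinostat libraries lay above both DMSO libraries. For miR-767-3p the DMSO libraries had 7 and 3 counts and the entinostat libraries 2 and 16, or 7.49 and 5.34 against 3.68 and 21.1 CPM. Here entinostat replicate 2 stood above the other libraries and entinostat replicate 1 was the lowest. Counting error alone was wide at these levels: in CPM of the whole library, exact 95% intervals of miR-767-3p were 0.442 to 13.2 in entinostat replicate 1 and 12.1 to 34.5 in replicate 2. PCR copies are not independent molecules, so all intervals of single libraries cover counting error only.

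**Figure D2:**
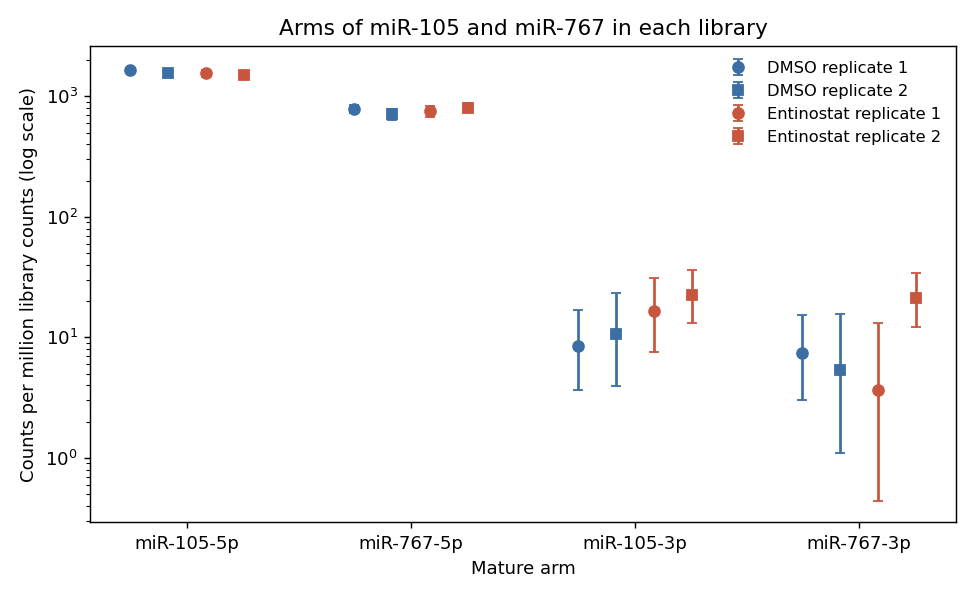
Level of each mature arm in each library, in CPM of the whole library on a log axis; points are libraries, circles replicate 1 and squares replicate 2, and bars are exact 95% counting intervals. The 5p arms lie close together across all 4 libraries, while the 3p arms rest on 2 to 17 counts and spread widely.

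In order of level, miR-105-5p came first in every library, then miR-767-5p, then the 3p arms. The 5p arms are both 23 bases long, and miR-105-5p had 2.10 and 2.19 times the counts of miR-767-5p with DMSO and 2.08 and 1.85 times with entinostat. Adapter ligation can favour some ends over others, so this ratio of counts need not be that of the molecules in the cells. Of the 3p arms, miR-105-3p was the higher in each library, at 9.62 ± 1.50 CPM in DMSO and 19.5 ± 4.13 CPM under entinostat, against 6.42 ± 1.52 and 12.4 ± 12.3 CPM for miR-767-3p (SD, n = 2). Under entinostat these means differed by less than the spread of miR-767-3p.

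No member was called when the treatments were compared. At a Benjamini-Hochberg adjusted p under 0.05, the quasi-likelihood test of edgeR called 0 of 401 miRNAs (0%). At an unadjusted p under 0.05 it gave 27 (6.73%), and no member was among those 27. Over the same 401 miRNAs limma-voom also called 0, with 31 at an unadjusted p under 0.05. Over all 826 rows DESeq2 called 0, with 11 at an unadjusted p under 0.05, and limma-voom called 1, which was no member, with 59. Nothing in the labels says that replicates were separate cultures, so the p-values cover only the variation among these libraries, possibly technical.

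For miR-105-5p the log2 fold change of entinostat over DMSO was -0.07 (SE 0.09, edgeR adjusted p = 0.850). As a fold, the 95% interval ran from 0.821 to 1.10. With upper quartile scaling the log2 fold change was 0.04 over the 401 tested miRNAs and -0.09 over all 826 rows. For miR-767-5p the log2 fold change was 0.05 (SE 0.11, edgeR adjusted p = 0.922), with an interval of the fold from 0.873 to 1.23, and it was -0.03 without DMSO replicate 2. A fall of miR-105-5p below 0.821 of its DMSO level, or a rise of miR-767-5p above 1.23 times, thus lay outside the intervals, within this fit and the scaling used. With DESeq2 the log2 intervals were wider, from -0.33 to 0.18 for miR-105-5p and from -0.28 to 0.37 for miR-767-5p. No reference RNA was named in the labels, so a rise or fall shared by all miRNAs could not be measured. With upper quartile scaling the median over the 401 tested miRNAs went from 0.00466 to 0.12 (log2), and each member's value is to be read against that shift.

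For miR-105-3p the log2 fold change was 1.06 (SE 0.51, unadjusted p = 0.0669, edgeR adjusted p = 0.595), and the interval of the fold ran from 0.938 to 4.66. In 20.7% of the tested miRNAs both entinostat libraries lay above both DMSO libraries, as they did for miR-105-3p. This arm was tested only because of its entinostat libraries: the low-count filter asked for 15.2 CPM in 2 libraries, and the unscaled values were 8.52 and 10.7 CPM with DMSO and 16.4 and 22.6 CPM with entinostat. In a fit of all 826 rows, with no filter, its log2 fold change was 1.05 (95% interval -0.17 to 2.26, unadjusted p = 0.0906, edgeR adjusted p = 0.861). The other 3p arm, miR-767-3p, did not pass the filter. In the same unfiltered fit its log2 fold change was 0.98 (SE 0.77, edgeR adjusted p = 0.861), which turned to -0.82 without entinostat replicate 2.

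**Figure D3:**
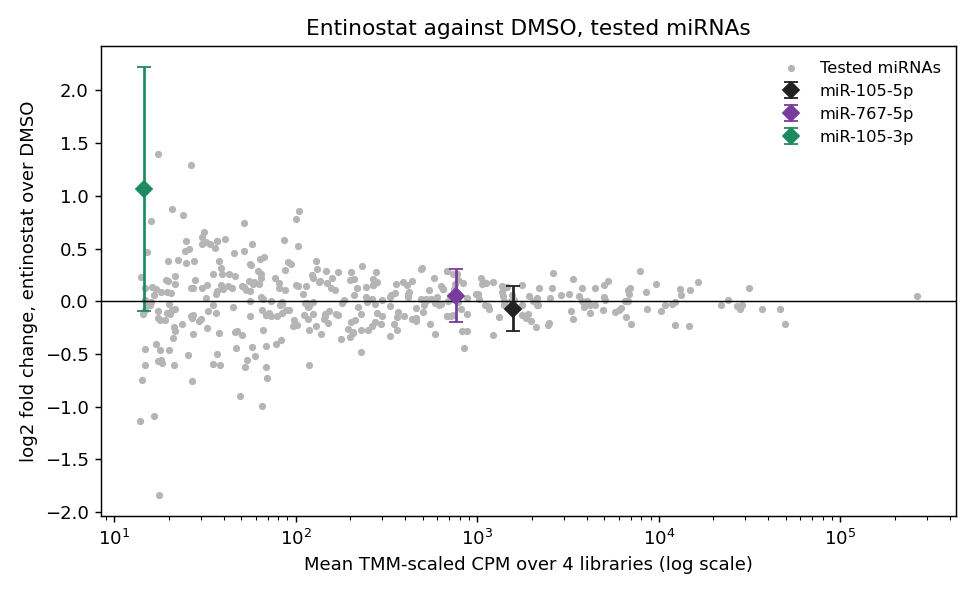
Log2 fold change of entinostat over DMSO against mean TMM-scaled CPM (log axis) for the 401 tested miRNAs in grey, with 3 members as diamonds and bars for their 95% intervals. The bars of miR-105-5p, miR-767-5p and miR-105-3p all cross 0, and miR-105-3p sits at the low end of the levels tested, where the grey points spread most.

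The cluster as a whole took a steady share of the library. Its 4 rows held 0.245% and 0.228% of the DMSO libraries and 0.233% and 0.235% of the entinostat libraries, and both entinostat values lay between the DMSO values. Both arms of miR-105 together held 0.166% and 0.156% with DMSO and 0.158% and 0.152% with entinostat (two-sided exact permutation test, p = 0.667). The lowest p that this test allows with 2 libraries per group is 0.333. For miR-767 the shares were 0.0794% and 0.0714% against 0.0754% and 0.0829% (two-sided exact permutation test, p = 0.667).

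Shares within the cluster do not depend on how libraries were scaled. Of the counts of both 5p arms, miR-767-5p made up 32.3% (exact 95% interval 30.4 to 34.2%) and 31.4% (28.8 to 34.0%) with DMSO. With entinostat it made up 32.4% (29.9 to 35.1%) and 35.1% (32.8 to 37.4%). The groups did not overlap, but entinostat replicate 1 lay within the counting interval of each DMSO library. The difference of means was 1.93 percentage points (two-sided exact permutation test, p = 0.333, the lowest this design allows). It was 0.615 without entinostat replicate 2, 3.24 without entinostat replicate 1, 2.39 without DMSO replicate 1 and 1.47 without DMSO replicate 2.

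In both miRNAs the 5p arm supplied nearly all counts. The 3p arm made up 0.514% (exact 95% interval 0.222 to 1.01%) and 0.684% (0.251 to 1.48%) of the miR-105 counts with DMSO. With entinostat it made up 1.04% (0.477 to 1.97%) and 1.49% (0.869 to 2.37%). The entinostat libraries were both higher, by 0.665 percentage points on average (two-sided exact permutation test, p = 0.333, the lowest this design allows). The intervals of all 4 libraries overlapped. The share of the rarer arm was also higher in both entinostat libraries for some other hairpins, such as miR-148a and miR-501. It was lower in both for others, such as miR-25 and miR-193b. How often each order occurred among hairpins was not counted. For miR-767 the 3p arm made up 0.940% and 0.748% with DMSO and 0.484% and 2.56% with entinostat (two-sided exact permutation test, p = 1.00). Here the DMSO libraries lay between the entinostat libraries.

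Entinostat replicate 2 had the highest 3p share of both miRNAs. For arm shares, hairpins were counted by miRNA name, so both copies of miR-105 count as 1. Rows with a copy number in the name, such as miR-16-2-3p, were not paired with a row of the shared name. Over the 146 hairpins with 2 listed arms and at least 100 counts, the minor arms summed to 4.83% and 4.89% in the DMSO libraries and 4.96% and 5.13% in the entinostat libraries. By hairpin, the minor-arm share was highest in entinostat replicate 2 for 50 of these 146 and in entinostat replicate 1 for 32. It was highest in DMSO replicate 1 for 26 and in DMSO replicate 2 for 38. The median share over these hairpins was lowest in entinostat replicate 2, at 4.30%. It was 4.48% in entinostat replicate 1 and 4.64% and 4.32% in the DMSO libraries. The part of such differences between libraries in the 3p values of the cluster was not tested.

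**Figure D4:**
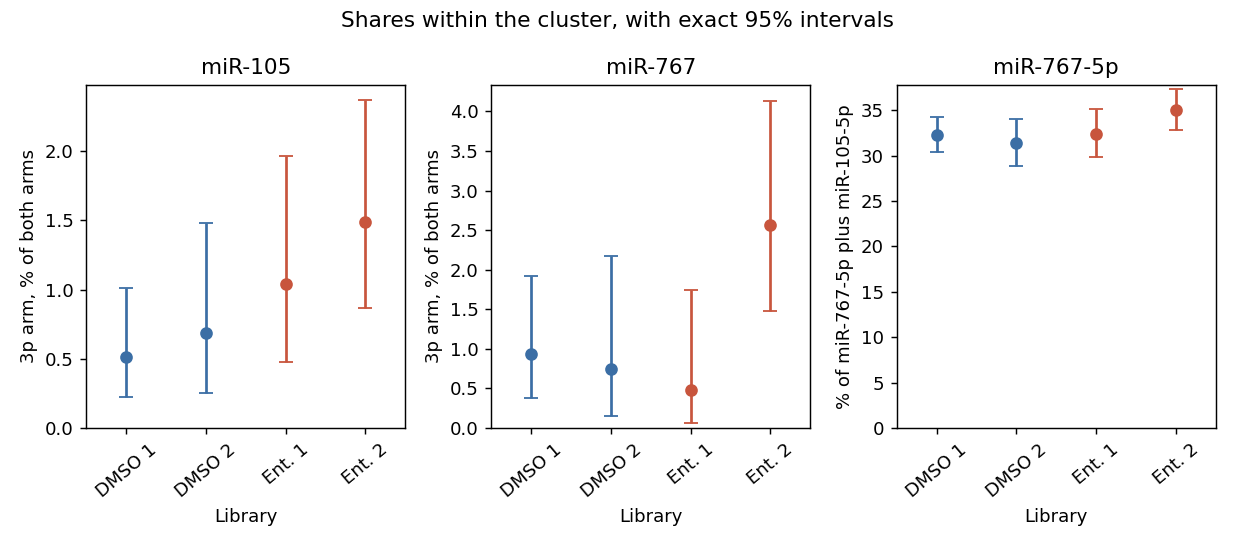
Shares within the cluster by library (DMSO blue, entinostat red; Ent. stands for entinostat), in percent with exact 95% counting intervals: the 3p arm of miR-105, the 3p arm of miR-767, and miR-767-5p among the counts of both 5p arms. Entinostat replicate 2 is the highest library in each panel, while entinostat replicate 1 lies lowest for the 3p arm of miR-767.

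Such one-sided arm use was also seen in some other hairpins of like abundance, though both miRNAs lay below the median minor-arm share of these. Pooled over libraries, miR-105 had 110.0 times as many 5p as 3p counts and miR-767 had 77.0 times as many. Of 190 hairpins with both arms listed, again counted by name, the 5p arm was the larger in 87. Among 33 hairpins with a total within 2-fold of the 4441 counts of miR-105, its minor-arm share of 0.901% ranked 9 from the lowest, and the shares ran from 0.0798% (miR-149) to 42.4% (miR-493) with a median of 3.52%. Library by library that rank was 6 and 8 with DMSO and 10 and 14 with entinostat. Among 39 hairpins within 2-fold of the 2183 counts of miR-767, its share of 1.28% ranked 13 from the lowest, between 0.104% (miR-323b) and 49.6% (miR-411), with a median of 3.74%. By library the rank of miR-767 was 10 and 8 with DMSO and 5 and 18 with entinostat.

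**Figure D5:**
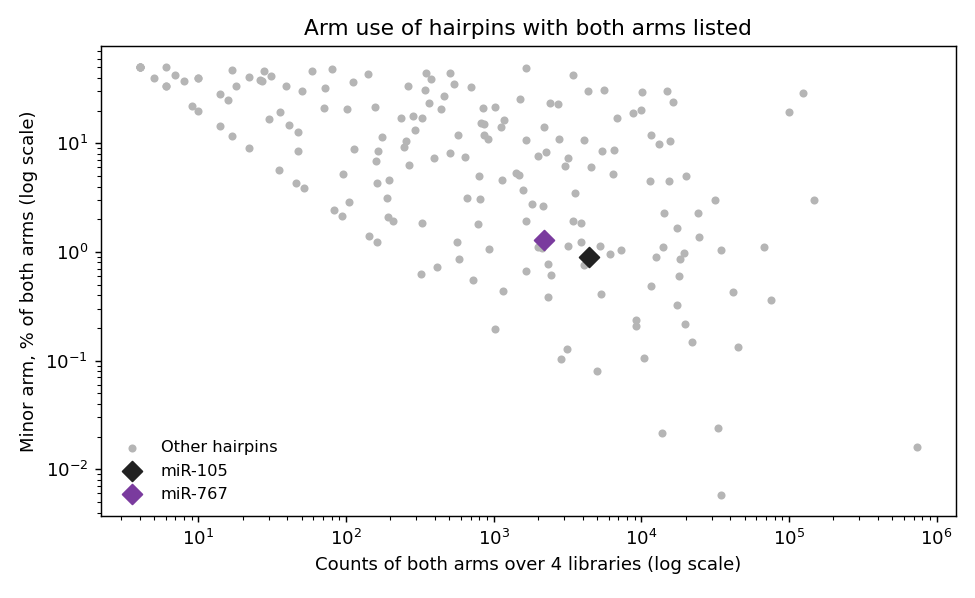
Minor arm in percent of both arms (log axis) against the counts of both arms over 4 libraries (log axis) for the 190 hairpins with both arms listed. At 0.901% and 1.28%, miR-105 and miR-767 lie below the medians of 3.52% and 3.74% of hairpins with like totals, but hairpins with lower shares lie beside them.

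Among the 729 listed miRNAs with a RefSeq sequence, none outside the cluster shared a seed with a member. The seed letters of miR-767-5p, GCACCAU, did occur 1 base further in, at bases 3 to 9, in the miR-29 family. Members of that family repress DNA methyltransferases and TET enzymes. They are shown with these letters in capitals, next to the sequences above.
miR-29a-3p: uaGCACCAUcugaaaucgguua
miR-29b-3p: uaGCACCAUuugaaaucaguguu
Only these rows and miR-767-5p held GCACCAU anywhere, 0.412% of the 729 sequences. In H661 cells miR-29a-3p was close to miR-767-5p in level, with 653 and 425 counts in the DMSO libraries and 447 and 640 in the entinostat libraries. Its means were 728.0 ± 41.1 and 833.2 ± 14.8 CPM (SD, n = 2), against 749.4 ± 57.2 and 779.0 ± 31.8 CPM for miR-767-5p. With DMSO the means differed by less than the spread of the libraries, while under entinostat miR-29a-3p was the higher by more than either SD, a difference that was not tested. The log2 fold change of miR-29a-3p was 0.20 (edgeR adjusted p = 0.595). The row of miR-29b-3p had 2 counts in DMSO replicate 1 and 0 in the other libraries.

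Other X-linked miRNAs were found at widely different levels, and other germ-line clusters were nearly silent. By RefSeq, 57 listed miRNAs have all their hairpins on the X chromosome. They held between 2.81% and 2.86% of each library, and the cluster supplied between 7.95% and 8.73% of those counts. Among the 57, miR-105-5p ranked 6 by mean level and miR-767-5p ranked 8, with miR-20b-5p between them and miR-363-3p first. Of the 31 tested, 17 lay above a log2 fold change of 0 and 14 below, 0 were called, and the median was 0.02, against 0.00466 over all 401 tested.

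Nearest in kind is the pair of miR-224 and miR-452 in GABRE, another X-linked gene of a GABA-A receptor subunit. Of that pair miR-224-5p had 34 and 19 counts in the DMSO libraries and 22 and 26 in the entinostat libraries, a log2 fold change of 0.07 (edgeR adjusted p = 0.964). Far fewer counts came from miR-452-5p, at 7 and 4 against 0 and 7. The testis-linked clusters around miR-506 and miR-888 of the X chromosome were at or near 0: miR-509-3-5p had 2 counts in 1 library, miR-891a-5p had 2 counts in 1 library, and miR-892a had 2 counts in each of 3 libraries. From the germ-cell and placental clusters of chromosome 19 a single row was listed, miR-372-3p, with 2 counts in entinostat replicate 2. None of these except miR-224-5p had enough counts to be tested.

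The miRNAs nearest in level to miR-105-5p were miR-3180-5p and let-7g-5p just above it and miR-99b-3p and miR-148a-3p just below, with means from 1553 to 1591 CPM. As these 4 were picked by level, their closeness to miR-105-5p is not a result. Around miR-767-5p lay miR-29a-3p, miR-548ah-3p, miR-589-5p and miR-132-3p, with log2 fold changes from 0.12 to 0.26 and none called. Around miR-105-3p lay miR-4728-3p, miR-487b-5p, miR-4741 and miR-3127-5p, whose log2 fold changes ran from -0.75 to 0.01. These rows were drawn from tested rows only, near the filter's 15.2 CPM, where a row can pass through 1 group alone. So miR-3127-5p passed through its DMSO libraries (18.0 ± 0.27 CPM, against 10.3 ± 4.12 CPM under entinostat). Their changes are therefore no measure of what is usual at the level of miR-105-3p.

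By the Pearson correlation of log2 TMM-scaled CPM over the 4 libraries, the patterns most like that of miR-105-5p were those of miR-1303, miR-191-3p and let-7d-3p (r from 0.992 to 1.00). Most like miR-767-5p were miR-340-5p, miR-410-3p and miR-4664-3p (r from 0.991 to 1.00), and most like miR-105-3p were miR-500a-5p, miR-27b-3p and miR-454-3p (r from 0.994 to 0.999). These values describe 4 points drawn from the same libraries and were picked as the highest of 400 rows. Between the 5p arms of the cluster itself r was -0.00722, and between miR-105-3p and miR-105-5p it was -0.84.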

How the data were processed

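Small RNA of 4 libraries was analysed, 2 per treatment, grouped and numbered by the sample titles. Per the labels' protocols, Trizol served for RNA and New England Biolabs reagents for the libraries, and bcl2fastq 2.18 was used, per the submitters' processing notes. No aligner, counter, annotation or build is named (not given in the sources used here), so how reads shared by like miRNAs were assigned is unknown. The authors deposited whole-number counts, 1 row per mature miRNA name. The deposited CPM values are the authors' counts divided by the library total, times 1e+06, within 0.0001 in 100% of rows, and served only for that check.

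With edgeR 4.0.16 (R 4.3.3), counts were scaled by TMM and fitted by quasi-likelihood with treatment as the only term, after filterByExpr (minimum count 10, minimum total 15), which kept 401 of 826 rows. TMM-scaled CPM are per 1e+06 counts of tested rows, and CPM of whole libraries are used where named. Standard errors of edgeR fold changes were derived as the absolute log2 fold change divided by the square root of the F statistic. Intervals of fold changes come from these, and those of shares are Clopper-Pearson 95% intervals. Depth was 547875 to 938559 counts per library, and the median derived standard error was 0.176 log2 units. The script was tested on simulated counts. Alternatives used DESeq2 1.42.0, limma 3.58.1 and other scalings and filters, a replicate block, and each library left out.

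Named were all members, rows of fixed lists (X-linked, germ-cell and cell type marker miRNAs), rows sharing seed letters, the 4 nearest in level and the 3 most alike in pattern per tested member. The members and lists were chosen with earlier results of these data known. The alternatives for miR-767 and the crossed pairing were added after seeing the data. Sequences and positions are RefSeq's (GRCh38.p14); hairpins were placed by name with GENCODE 29 (GRCh38), which gave the same coordinates, and folded with RNAfold 2.7.2. Python 3.11.15, SciPy 1.17.1, Biopython 1.88 and matplotlib 3.10.9 were used.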

Additional observations from a re-analysis of the deposited data

How the results depend on the processing

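The count of 0 called miRNAs became 4 with the edgeR likelihood ratio test, and ran from 0 to 6 when 1 library was left out, the 6 without entinostat replicate 1; no member was among either. The log2 fold change of miR-105-5p turned to 0.043 with upper quartile factors over the 401 tested miRNAs, and was -0.086 with them over all 826 rows. With 1 library left out, the log2 fold change of miR-105-5p ran from -0.12 to -0.02. That of miR-105-3p ran from 0.81 to 1.24, that of miR-767-5p from -0.026 to 0.14 and that of miR-767-3p from -0.82 to 1.64, the negative values without DMSO replicate 2 and without entinostat replicate 2. The difference in the 5p share (entinostat minus DMSO, percentage points) was -0.665 for miR-105, from -0.888 to -0.441 with 1 library left out, and -0.680 for miR-767, from -1.72 to 0.36, the positive value without entinostat replicate 2. That in the library share of miR-105 ran from -0.0110 to -0.00137. The miR-767-5p share of both 5p arms differed by 0.615 to 3.24 points. Over the 401 tested miRNAs, and for miR-767-3p over all 826 rows, the other alternatives run kept direction and call for these results. Fits of all 826 rows called 2 miRNAs with the replicate block, 1 with the crossed block, 1 with limma-voom and 1 without entinostat replicate 2, none of them a member; there miR-767-5p turned to -0.0036 without entinostat replicate 2. With a library left out, the lone library of its group was assumed to vary like the others.

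Same-numbered libraries did not deviate together (r = -0.116 over 401 miRNAs), and no label pairs them. With the replicate number as a block, 0 of the 401 were called, and the log2 fold changes were -0.07 for miR-105-5p, 1.00 for miR-105-3p and 0.06 for miR-767-5p; in the block fit of all 826 rows miR-767-3p was at 0.67. With the numbers crossed, 0 of the 401 were called. Depth limits the 3p arms most, at 2 to 17 counts per library.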

Other observations

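The count table holds no value of 1, while 381 values are 2, and no limit is given here for counts of 0. The 3p arms and the germ-line clusters, at 0 to 17 counts per library, lie near that minimum, whereas the 5p arms had 398 or more.

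The seed letters of miR-105-3p, CGGAUGU, recur at bases 9 to 15 of miR-30a-3p and miR-30e-3p, abundant arms of the miR-30 family. The run shared with miR-30a-3p is 10 bases, CGGAUGUUUG, and miR-30a-3p stood at 897.9 times the mean level of miR-105-3p. Its log2 fold change was 0.12, against 1.06 for miR-105-3p. The seed letters of miR-105-5p, CAAAUGC, recur at bases 7 to 13 of miR-589-3p, which had 5 and 8 counts in the DMSO libraries and 2 and 8 in the entinostat libraries, and those of miR-767-3p, CUGCUCA, in none of the other 725 sequences.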
